A study of Mus musculus with 3 samples.

Results

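The activin ligands, their receptors and their binding proteins were followed as 10 genes, chosen by symbol from the 31053 genes of the count matrices, and all 10 were found. Activins are dimers of the inhibin beta chains that Inhba and Inhbb encode, and they belong to the TGF-beta superfamily. An activin dimer binds a type II receptor, Acvr2a or Acvr2b, which then recruits and phosphorylates a type I receptor, mainly Acvr1b, and this receptor signals through SMAD2 and SMAD3. The secreted proteins Fst (follistatin) and Fstl3 (follistatin-like) hold the ligands away from the receptors, and Tgfbr3 (betaglycan) is a co-receptor that binds TGF-beta and inhibin. Acvr1 is a type I receptor for bone morphogenetic proteins (BMPs) that activin A can also engage, and its activating mutations cause the inherited form of heterotopic ossification (HO), the growth of cartilage and bone in soft tissue. Acvrl1 is the type I receptor for BMP9 and BMP10 and is best known from endothelium.

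They were measured in single cells from subcutaneous Matrigel implants in female CD-1 mice aged 6 to 8 weeks, taken on day 5. There were 3 groups with 1 library each, and the masses of a group went into that library together. The Matrigel-only implants held the basement membrane gel without BMP2. Those mice received no palovarotene, and their label gives the treatment as nothing, with no carrier named. The Vehicle implants held recombinant human BMP2 (rhBMP2) in Matrigel, and the mice received the corn oil and DMSO carrier. The Palo implants held the same rhBMP2 and Matrigel, and the mice received palovarotene, an agonist of the retinoic acid receptor gamma, at 4 mg/kg daily by gavage. The model therefore adds BMP2 from outside, with no targeted allele. By the labels, Matrigel-only differs from Vehicle in both BMP2 and the carrier, and from Palo in both BMP2 and the drug. The part of the carrier was not tested. With 1 library per group the differences between groups have no replicate check, so no p-value is given, and the 95% intervals cover counting error only.

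The libraries held 44252421 (Matrigel-only), 46317250 (Vehicle) and 46901673 (Palo) unique molecular identifiers (UMIs, 1 per captured RNA molecule), and 8728, 5478 and 7297 cells passed the limits on genes and mitochondrial UMIs. Cells in which Col1a1, Col1a2, Col3a1, Dcn and Lum held at least 1% of UMIs were called stromal cells. They numbered 2085, 1373 and 1184, which was 23.9%, 25.1% and 16.2% of the passing cells, and the rest are called other cells. The 11 stromal markers summed all had UMIs in the stromal cells of each library, but 5 of them are the genes of the gate. The level of the 11 was 79947, 58007 and 89585 CPM there (CPM, UMIs of a gene per 1000000 UMIs of the same cells). In other cells it was 380 to 712 CPM. The gate genes held 1506926 of the 1602861 marker UMIs in Matrigel-only stromal cells, 1257431 of 1368465 in Vehicle and 1346619 of 1418336 in Palo. This contrast was thus set largely by the gate and is no check on it. The median stromal cell held 9082, 17114 and 12955 UMIs, and the median other cell 2950, 3208 and 4156. Macrophage markers (12 genes) summed to 1044, 387 and 854 CPM in stromal cells against 19002 to 26003 CPM in other cells, and their part in the results was not tested. Between 11 and 21 barcodes were shared by any 2 libraries. Below, 3 values in a row are in the order Matrigel-only, Vehicle, Palo.

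The secreted members whose stromal levels differed most between groups were Inhba, Inhbb and Fstl3, and the sequence just before the annotated start of each is shown for that reason. On the mm10 mouse genome Inhba lies at chr13:16011851-16031621 on the plus strand and Inhbb at chr1:119415465-119422248 on the minus strand, while Fstl3 lies at chr10:79777272-79782630 on the plus strand. The windows, from RefSeq on GRCm38.p6, are Inhba chr13:16011601-16011850, Inhbb chr1:119422249-119422498 and Fstl3 chr10:79777024-79777271, each printed 5′ to 3′ on the strand of its gene and upstream of annotated exons. Capitals mark matches to 7 short motifs that were searched on both strands.
Inhba: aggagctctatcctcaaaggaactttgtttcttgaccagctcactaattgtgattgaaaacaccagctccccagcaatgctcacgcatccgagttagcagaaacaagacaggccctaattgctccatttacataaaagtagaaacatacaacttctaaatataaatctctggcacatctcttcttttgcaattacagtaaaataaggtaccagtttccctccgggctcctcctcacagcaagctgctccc
Inhbb: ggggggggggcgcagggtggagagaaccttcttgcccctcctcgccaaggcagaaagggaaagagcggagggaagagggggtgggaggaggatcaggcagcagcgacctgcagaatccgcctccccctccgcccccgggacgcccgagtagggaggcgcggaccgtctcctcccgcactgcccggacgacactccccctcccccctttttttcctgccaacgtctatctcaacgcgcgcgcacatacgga
Fstl3: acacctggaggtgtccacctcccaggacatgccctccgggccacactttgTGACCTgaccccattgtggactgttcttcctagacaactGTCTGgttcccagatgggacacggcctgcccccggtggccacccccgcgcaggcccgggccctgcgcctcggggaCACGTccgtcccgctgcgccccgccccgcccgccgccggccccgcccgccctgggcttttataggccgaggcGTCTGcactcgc
The motifs were TGANTCA (AP-1), TGACGTCA (the cyclic AMP response element), ACGTG (the hypoxia element core), AGGTCA (the nuclear receptor half-site), CAGAC (the SMAD3 box), GGCGCC (the GC-rich SMAD palindrome) and TGTGGT (RUNX), and none contains another. The Fstl3 window held 1 ACGTG, 1 AGGTCA and 2 CAGAC matches. The Inhba and Inhbb windows held none of the 7. Among the 250 bases before the start in 32851 RefSeq promoters, ACGTG was found in 16.6%, AGGTCA in 14.0% and CAGAC in 42.2%, so matches of this kind are common. TGANTCA was found in 6.75%, TGACGTCA in 1.55%, GGCGCC in 9.59% and TGTGGT in 14.0%. The Inhba window is the AT-richer one, with 43.2% G and C against 68.0% for Inhbb and 71.4% for Fstl3. Promoter windows were at hand for 7 of the 10 genes.

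Inhba was the member that differed most between the groups. In stromal cells it was at 23.0 CPM (interval 20.9 to 25.2, 461 UMIs) without BMP2, at 660 CPM (649 to 670, 15564 UMIs) with BMP2 and carrier, and at 64.4 CPM (60.5 to 68.4, 1019 UMIs) with BMP2 and palovarotene. The Vehicle library was thus far above both others, and Palo lay between them. Vehicle was 28.7-fold above Matrigel-only (log2 ratio 4.84, interval 4.71 to 4.98). Palo was 10.3-fold below Vehicle (log2 ratio -3.36, -3.45 to -3.27) and 2.80-fold above Matrigel-only (log2 ratio 1.49, 1.32 to 1.65). The share of stromal cells with an Inhba UMI, after thinning each cell to 3000 UMIs, was 4.26% (3.39 to 5.27), 52.5% (49.7 to 55.2) and 11.5% (9.74 to 13.6), with 202, 69 and 53 shallower cells left out. Without thinning it was 10.8%, 74.5% and 28.0%. In other cells, thinned likewise to 3000 UMIs, the shares were 0.131%, 1.78% and 0.249%, over the 3244, 2198 and 4605 cells deep enough. At 1000 UMIs, which keeps more of these cells, they were 0.0841%, 0.805% and 0.0641%, and without thinning 0.211%, 2.73% and 0.294%.

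Inhbb, which encodes the chain of activin B, ran the other way. Its stromal levels were 10.97, 2.08 and 13.9 CPM, from 220, 49 and 220 UMIs. Vehicle was the low library, at a log2 ratio of -2.40 (-2.88 to -1.95) to Matrigel-only, and Palo was above Vehicle at 2.74 (2.29 to 3.22). The Palo to Matrigel-only log2 ratio was 0.34.

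The antagonists differed in opposite directions. Fst, on chr13:114452290-114458951 (minus strand), was at 140, 73.3 and 119 CPM in stromal cells, lowest in Vehicle, with a log2 ratio of -0.93 (-1.02 to -0.85) to Matrigel-only and 0.70 in Palo over Vehicle. Fstl3 was at 15.2, 61.3 and 17.9 CPM, high in Vehicle alone, with log2 ratios of 2.02 (1.84 to 2.20) and -1.78 (-1.97 to -1.59). Set against the ligand in the same cells, Fst and Fstl3 together gave 6.75 (6.12 to 7.46), 0.204 (0.196 to 0.212) and 2.13 (1.98 to 2.30) UMIs per Inhba UMI. The ratio was thus lowest in Vehicle, and Palo lay between Vehicle and Matrigel-only. It came from 3110, 3176 and 2170 antagonist UMIs over 461, 15564 and 1019 Inhba UMIs. Its change was thus mostly that of Inhba. Counting Fst alone, the values were 6.09, 0.111 and 1.85. Counting Fstl3 alone, they were 0.659, 0.0929 and 0.278. These are ratios of 3′-end counts of different genes, so their change between libraries can be read but not their size.

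The receptors that bind activin directly come next. Acvr2a (chr2:48814109-48903269, plus strand), a type II receptor, was at 9.68, 7.80 and 11.2 CPM, with log2 ratios of -0.31 in Vehicle over Matrigel-only and 0.52 (0.21 to 0.83) in Palo over Vehicle. Acvr2b (chr9:119402118-119434995, plus strand), the other type II receptor, was at 2.49, 3.22 and 1.45 CPM and stayed under the minimum of 10 CPM that a call needed. Its log2 ratio was 0.37 (-0.16 to 0.91) in Vehicle over Matrigel-only and -1.15 (-1.89 to -0.46) in Palo over Vehicle, from 76 and 23 UMIs in the latter. Acvr1b (chr15:101174067-101213684, plus strand), the main activin type I receptor, was at 17.7, 15.3 and 10.9 CPM. Its log2 ratio was -0.21 (-0.43 to 0.00) in Vehicle over Matrigel-only and -0.49 (-0.76 to -0.22) in Palo over Vehicle, which leaves Palo as the low library.

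Of the BMP receptors, Acvr1 (chr2:58388644-58567157, minus strand) was at 36.1, 87.8 and 42.7 CPM, with Vehicle high, at log2 ratios of 1.28 (1.16 to 1.41) and -1.04 (-1.17 to -0.91). Acvrl1 (chr15:101128522-101145336, plus strand) was at 66.7, 32.5 and 50.6 CPM, with Vehicle low, at -1.04 (-1.17 to -0.91) and 0.64 (0.50 to 0.78). Tgfbr3 (chr5:107106570-107289629, minus strand) was at 188, 32.1 and 112 CPM, with Vehicle far below both others, at -2.55 (-2.66 to -2.44) and 1.80 (1.68 to 1.92). An exon of Tgfbr3 overlaps the gene Gm43422 on the same strand, so its counts are uncertain to that extent. Thinned to 3000 UMIs, the share of stromal cells with a UMI was 43.2%, 9.11% and 28.7% for Tgfbr3 and 9.70%, 22.7% and 12.6% for Acvr1, which is the same order as the CPM.

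Counted with a call at more than 2-fold among genes at 10 CPM or more in either library, 3 of the 8 members that passed the minimum were higher in Vehicle than in Matrigel-only stromal cells (Inhba, Fstl3, Acvr1) and 3 were lower (Inhbb, Acvrl1, Tgfbr3). Of all 9227 genes that passed, 5.09% were higher and 10.1% lower. In Palo over Vehicle, 2 of 9 were higher (Inhbb, Tgfbr3) and 3 lower (Inhba, Fstl3, Acvr1), where 7.08% of 9040 genes were higher and 5.17% lower. In Palo over Matrigel-only, 1 of 9 was higher (Inhba) and 0 were lower, where 0.672% of 8925 genes were higher and 2.04% lower. The median log2 ratio of the members that passed was -0.57, 0.52 and 0.21 in these contrasts, against -0.03, 0.01 and -0.03 over all genes that passed. The first pair of contrasts shares the Vehicle library. The calls of Acvrl1 in Vehicle over Matrigel-only and of Acvr1 in Palo over Vehicle lie at the limit, and under 8 other settings they stayed past it in 5 (log2 ratios -1.13 to -0.96) and 6 (-1.08 to -0.95). Other lists differed in the same contrasts. In Vehicle over Matrigel-only 15 of 15 cartilage genes that passed were higher, 13 of 14 progenitor genes lower, 7 of 8 contractile genes higher and 8 of 10 immune genes lower, and of the stress and dissociation genes 5 were lower and 1 higher. In Palo over Vehicle 15 of 15 cartilage genes were lower, and 11 of 14 progenitor genes were higher and 1 lower. There 4 of 8 contractile genes were lower, 7 of 10 immune genes higher and 5 of 8 stress and dissociation genes higher. The part of these shifts in the members' values was not tested, and values within classes of stromal cells are given below.

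**Figure D1:**
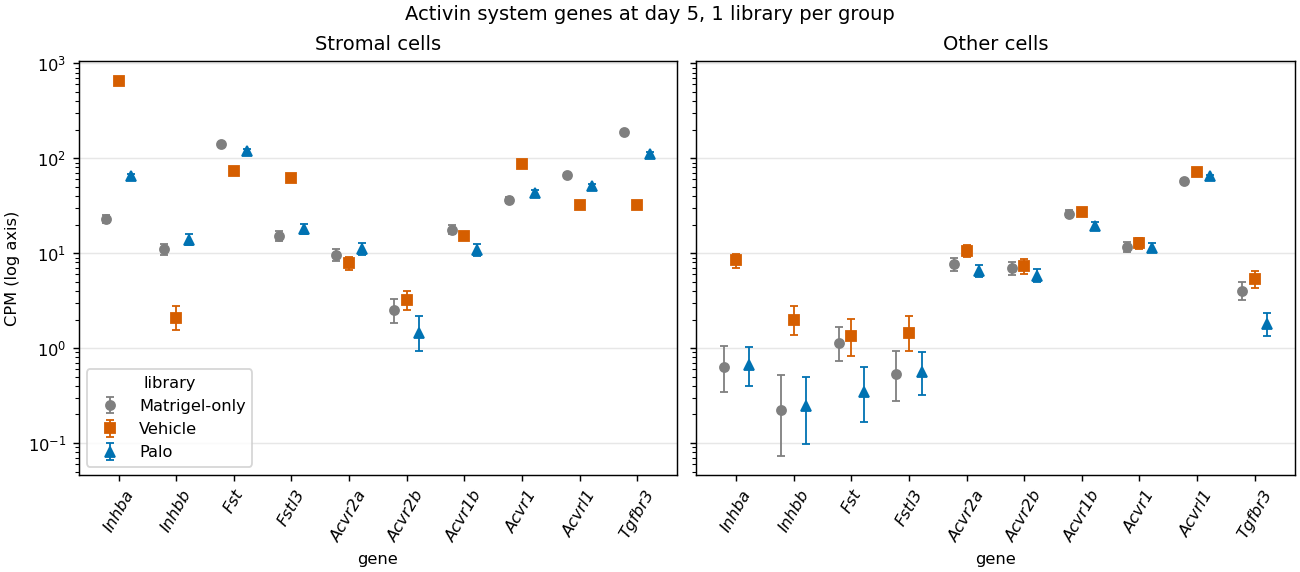
Level of each of the 10 genes in CPM (log axis) in the stromal cells and the other cells of the 3 libraries, with 95% counting intervals. Inhba stands at 23.0, 660 and 64.4 CPM in stromal cells, while Inhbb and Tgfbr3 are lowest in Vehicle.

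The high Inhba level of Vehicle was spread over many cells. Of the stromal cells, 20, 633 and 51 held 5 or more Inhba UMIs, which was 0.959%, 46.1% and 4.31%. Cells with 0 Inhba UMIs numbered 1859, 350 and 853. The highest single cell held 24, 282 and 37 UMIs. The tenth of stromal cells with the most Inhba held 96.1%, 58.3% and 72.8% of its stromal UMIs, and since 10.8% of Matrigel-only cells held any, the first of these shares is high by construction. Depth moved with these counts: in Vehicle, the median total was 20498 UMIs in cells with 5 or more Inhba UMIs and 12124 in cells with 0. The thinned shares above are at equal depth.

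**Figure D2:**
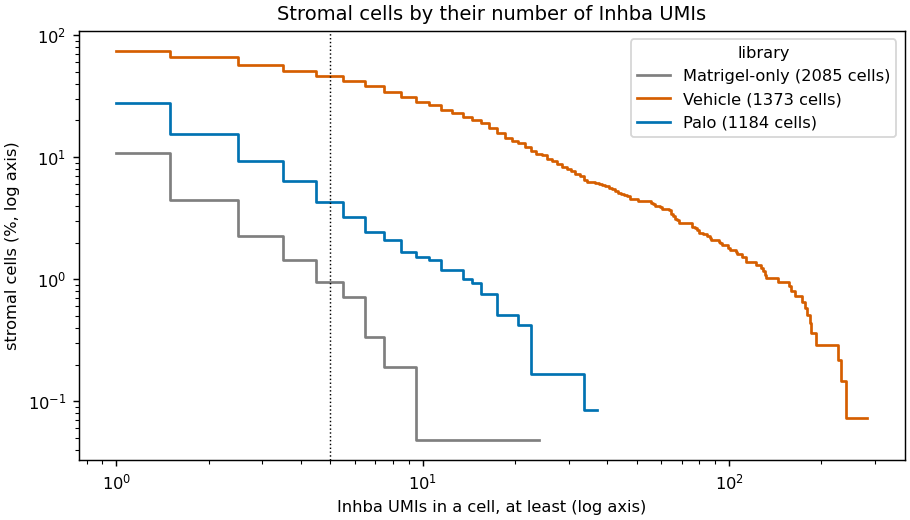
Percent of stromal cells (log axis) that hold at least the number of Inhba UMIs on the horizontal axis (log axis), with a line for each of the 3 libraries and a dotted line at 5 UMIs. Cells with 5 or more UMIs make up 0.959% of Matrigel-only, 46.1% of Vehicle and 4.31% of Palo stromal cells.

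The stromal cells of the libraries did not have the same makeup, and the members were followed within 4 classes set by marker UMIs. A cell over several limits was placed by Col2a1 before Acan, and by Acan before the progenitor markers. Progenitor-marker cells, with at least 0.05% of UMIs from Pi16, Dpp4 and Clec3b, numbered 1279, 121 and 412, which was 61.3%, 8.81% and 34.8% of stromal cells. Acan cells, with at least 0.1% of UMIs from the cartilage proteoglycan aggrecan and under the Col2a1 limit, numbered 0, 288 (21.0%) and 0. Col2a1 cells, with at least 0.1% from the cartilage collagen Col2a1, numbered 0, 232 (16.9%) and 0. A count of 0 allows, at 3 counts of the total, a share of up to 0.144% of stromal cells in Matrigel-only and 0.253% in Palo, and the Clopper-Pearson upper bounds are 0.177% and 0.311%. The remaining 806, 732 and 772 are called the remaining stromal cells.

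In progenitor-marker cells Inhba was near 5 to 8 CPM in every library. Its levels there were 5.38, 4.59 and 7.66 CPM, with log2 ratios of -0.23 (-1.61 to 0.91) for Vehicle over Matrigel-only and 0.74 (-0.45 to 2.15) for Palo over Vehicle, intervals that span 0. In the remaining stromal cells it was at 42.7, 868 and 87.4 CPM, with log2 ratios of 4.34 (4.20 to 4.49), -3.31 (-3.41 to -3.22) and, for Palo over Matrigel-only, 1.03 (0.86 to 1.20). In Vehicle, the Acan cells were at 403 CPM and the Col2a1 cells at 551 CPM. Of the Inhba UMIs in Vehicle stromal cells, 72.6% came from the remaining stromal cells, 14.6% from Col2a1 cells, 12.7% from Acan cells and 0.045% from progenitor-marker cells. The Inhba difference between libraries was thus also present in cells under the Acan and Col2a1 limits. Cells under these limits can still hold UMIs of either gene. In Vehicle, 359 of the remaining stromal cells had 5 or more Inhba UMIs, and 202 of those had no Acan or Col2a1 UMI.

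Tgfbr3 was at 239, 211 and 172 CPM in progenitor-marker cells, where Vehicle and Matrigel-only differed by a log2 ratio of -0.18 (-0.35 to -0.01). Palo over Vehicle was -0.29 (-0.48 to -0.10) there, opposite in sign to the 1.80 of all stromal cells. In the remaining stromal cells Tgfbr3 was at 131, 29.5 and 87.1 CPM. The log2 ratios there were -2.15 (-2.32 to -1.98) for Vehicle over Matrigel-only and 1.56 for Palo over Vehicle. Tgfbr3 was at 5.90 and 5.32 CPM in Acan and Col2a1 cells. Its low value in Vehicle was thus also seen in the remaining stromal cells. That class is what the marker limits leave over and can itself differ in makeup between libraries. The part of makeup in the Tgfbr3 values was not tested.

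Inhbb was at 9.82, 7.21 and 7.44 CPM in progenitor-marker cells (log2 ratio of Vehicle over Matrigel-only -0.45, -1.49 to 0.45) and at 12.3, 2.84 and 16.5 CPM in the remaining stromal cells (-2.11, and 2.54 in Palo over Vehicle). The Acan cells held 1 Inhbb UMI and the Col2a1 cells 0, which allows up to 0.725 CPM at 3 counts of the total (the limit used below for a count of 0). Fst was at 155, 148 and 112 CPM in progenitor-marker cells and at 123, 73.0 and 122 CPM in the remaining stromal cells, with 76.7 CPM in Acan and 42.8 CPM in Col2a1 cells. Fst thus differed little between Vehicle and Matrigel-only in progenitor-marker cells (-0.06, -0.27 to 0.14) and by -0.76 in the remaining ones. Its Palo over Vehicle log2 ratio was -0.40 (-0.63 to -0.17) in progenitor-marker cells and 0.74 in the remaining ones. Fstl3 was at 5.85, 11.8 and 8.53 CPM in progenitor-marker cells and at 25.6, 67.0 and 21.7 CPM in the remaining cells, with log2 ratios of 1.01 (0.17 to 1.79) and 1.39 for Vehicle over Matrigel-only.

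Among receptors, Acvr1 was at 29.2, 33.4 and 30.0 CPM in progenitor-marker cells and at 43.8, 88.4 and 47.9 CPM in the remaining cells, with 107 CPM in Acan cells and 83.4 CPM in Col2a1 cells. Its log2 ratio of Vehicle over Matrigel-only was 0.20 (-0.26 to 0.63) in the former and 1.01 in the latter. Acvrl1 was at 68.5, 59.7 and 56.9 CPM in progenitor-marker cells and 64.7, 34.5 and 48.0 CPM in the remaining cells. Inside the progenitor-marker cells, Acvr2a was at 8.21, 24.3 and 11.6 CPM, with log2 ratios of 1.56 (0.97 to 2.13) and -1.07 (-1.70 to -0.42), so Vehicle was high there. Acvr1b in these cells was at 16.5, 23.0 and 10.9 CPM, with 0.47 (-0.09 to 1.004) and -1.07 (-1.72 to -0.40), and with -0.59 (-1.08 to -0.13) for Palo over Matrigel-only.

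**Figure D3:**
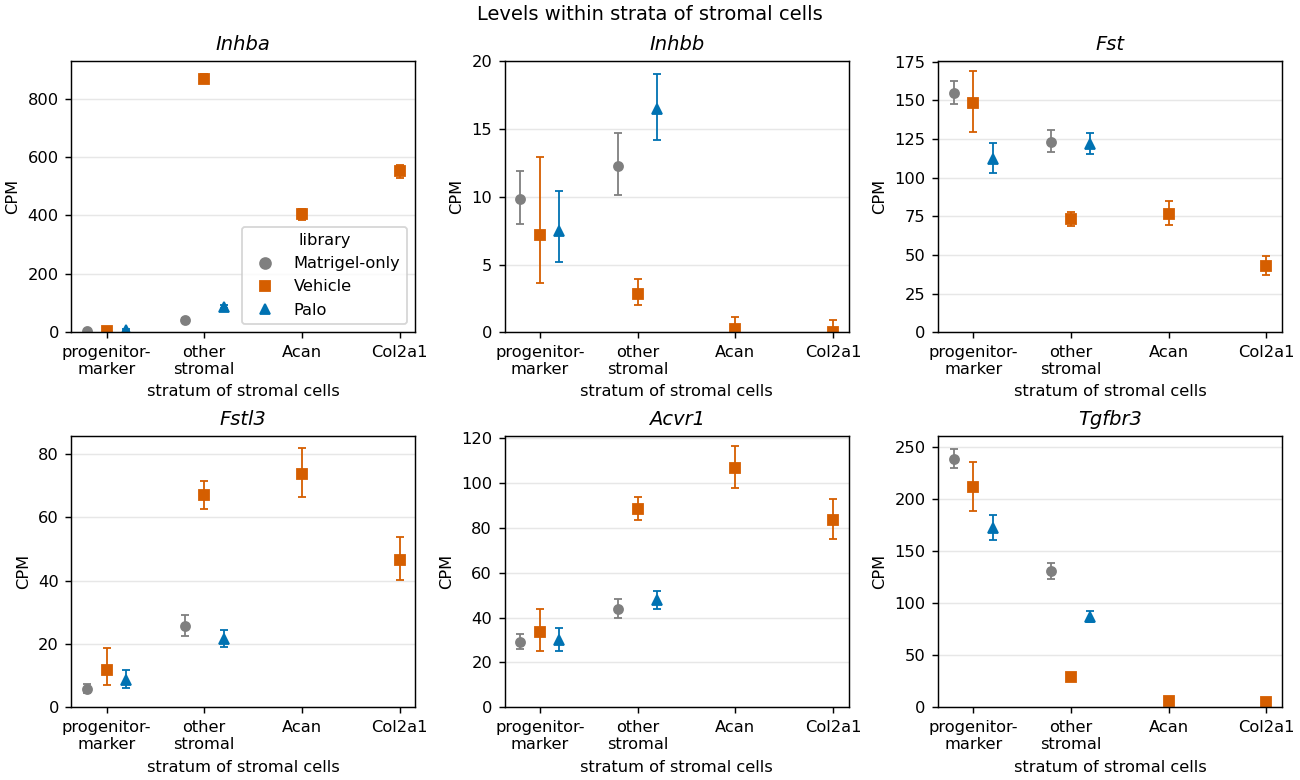
Level in CPM of Inhba, Inhbb, Fst, Fstl3, Acvr1 and Tgfbr3 in the 4 classes of stromal cells of each library (points, with 95% counting intervals; the remaining stromal cells are marked other stromal). Inhba in Vehicle is at 4.59 CPM in progenitor-marker cells and at 868 CPM in the remaining stromal cells, with Acan and Col2a1 cells found in Vehicle only.

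Outside the stromal gate the members fell into those nearly absent and those present. Of the other cells, 1212 were given no class, and Col2a1 led the genes higher in them. In other cells, 5 of the 5 cartilage genes that passed were higher in Vehicle than in Matrigel-only, where 5.23% of genes were. Whether cartilage cells lie among the other cells was not tested. Stromal cells held 97.1%, 99.1% and 98.2% of all Inhba UMIs, 99.1%, 98.7% and 99.5% of Fst UMIs, and 96.2%, 98.4% and 94.6% of Fstl3 UMIs. Tgfbr3 was also mostly stromal, at 97.7%, 89.6% and 97.1%, and Acvr1 less so, at 73.7%, 90.8% and 67.3%. By contrast Acvr2a (53.3%, 51.3% and 48.5%), Acvr1b (38.0%, 44.2% and 23.4%), Acvrl1 (50.9%, 39.1% and 30.1%) and Acvr2b (24.4%, 38.4% and 12.1%) had many of their UMIs in other cells. No member that passed the minimum there (4, 4 and 3 in the contrasts) was past 2-fold in other cells, where 5.23% of genes were higher and 1.97% lower in Vehicle over Matrigel-only, 1.66% and 6.49% in Palo over Vehicle, and 0.786% and 1.54% in Palo over Matrigel-only.

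The Inhba UMIs of other cells followed the stromal order. They numbered 14, 139 and 19, at 0.63, 8.38 and 0.66 CPM, with log2 ratios of 3.74 (2.94 to 4.65) and -3.67 (-4.44 to -2.97). Of the 139 in Vehicle, 84 came from macrophage-like cells, with at most 3 in a cell, while the highest of all other cells held 12. The amount of Inhba UMIs in other cells was set against the UMIs of the 5 genes that defined the stromal cells. In Vehicle there were 12.4 Inhba UMIs per 1000 such UMIs in stromal cells and 12.5 (9.94 to 15.5) in macrophage-like cells, so the stromal ratio lay within the interval of the macrophage-like cells. In Matrigel-only and Palo the ratios were 0.306 and 0.757 in stromal cells and higher in macrophage-like cells, at 1.39 (0.74 to 2.38) and 1.74 (0.97 to 2.87). The part of free stromal RNA in these counts was not tested. In Vehicle, the 94 granulocyte-like cells stood above the stromal ratio at 58.3 (23.0 to 124), from 7 Inhba UMIs. The 65 endothelial-like cells were at 14.4, also from 7 UMIs.

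Inhbb UMIs in other cells numbered 5, 33 and 7. Of the 33 in Vehicle, 16 came from the 65 endothelial-like cells, at 35.6 CPM (20.4 to 57.9), and these sat in 3 cells, of which 1 held 9. Macrophage-like cells held 0, 2 and 2 Inhbb UMIs, and a count of 0 in Matrigel-only allows up to 0.159 CPM. Stromal cells held 59.8% of the Inhbb UMIs in Vehicle, against 97.8% in Matrigel-only and 96.9% in Palo.

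The receptors of other cells were followed in classes named by their markers. Macrophage-like cells numbered 5619, 2959 and 5284, dendritic-like cells 442, 206 and 349, and T and NK-like cells 79, 273 and 58. In macrophage-like cells, Acvrl1 was at 53.9, 69.5 and 60.3 CPM. In dendritic-like cells it was higher in each library, at 108, 139 and 106 CPM. It was at 120 CPM (90.4 to 157) in the endothelial-like cells of Vehicle and at 16.4 CPM in the T and NK-like cells of Vehicle. The receptor known from endothelium was thus at levels in dendritic-like cells that lie within the interval of the endothelial-like cells. Acvr1b had 25.7, 28.0 and 19.5 CPM in the macrophage-like class and 33.6, 28.3 and 18.9 CPM in the dendritic-like class, with Palo low in both. Macrophage-like cells had Acvr2b at 6.85, 7.07 and 5.63 CPM. T and NK-like cells held 0 UMIs of it, which allows up to 20.9, 3.78 and 22.9 CPM. For Acvr2a the levels were 7.17, 9.07 and 6.15 CPM in the macrophage-like class and 41.8, 17.6 and 15.2 CPM among T and NK-like cells, from 6, 14 and 2 UMIs.

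**Figure D4:**
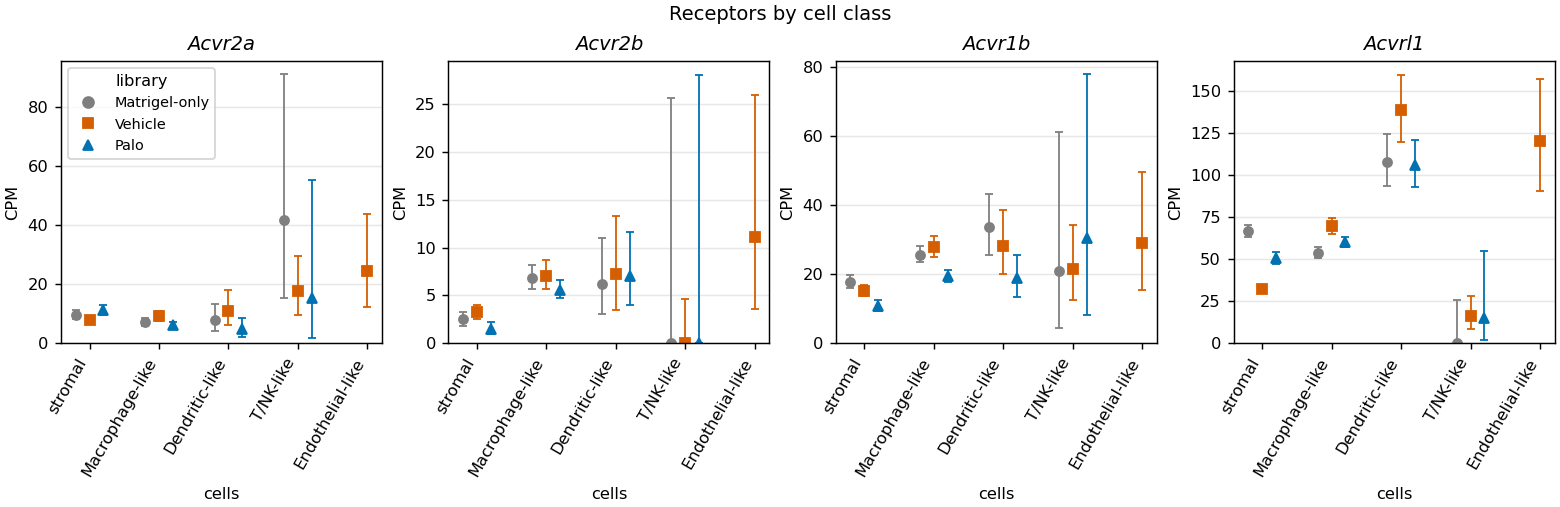
Level in CPM of Acvr2a, Acvr2b, Acvr1b and Acvrl1 in stromal cells and in macrophage-like, dendritic-like, T and NK-like and endothelial-like cells, for each library with at least 50 such cells (points, with 95% counting intervals). Acvrl1 is at 53.9 to 69.5 CPM in macrophage-like and 106 to 139 CPM in dendritic-like cells.

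Other genes of the pathway, from a list of 30, were counted in the same stromal cells. In Vehicle over Matrigel-only 20 passed the minimum, of which 1 was higher and 5 were lower, with a median log2 ratio of -0.25, where 5.09% of all genes were higher and 10.1% lower. The higher gene was Bambi, a decoy receptor of the family, at 7.88, 71.5 and 13.7 CPM (log2 ratio 3.18). Smad7, the inhibitory SMAD, was at 51.8, 98.0 and 68.0 CPM (0.92). Lower were Pcsk6, a convertase that cleaves precursors of the family (61.4, 8.82 and 43.9 CPM, -2.80), Tgfbr2, the TGF-beta type II receptor (797, 159 and 603 CPM, -2.32), Fstl1, a follistatin-like protein (-1.75), Smad3 (-1.32) and Tgfbr1, the TGF-beta type I receptor (-1.20). These 5 were also higher in Palo than in Vehicle, at 2.32, 1.92, 1.47, 1.33 and 1.16, as was Smurf1 (1.04), while Bambi (-2.38) and Inha, the inhibin alpha chain (-1.40), were lower, where 7.08% of all genes were higher and 5.17% lower. In Palo over Matrigel-only 19 passed, with 0 past 2-fold either way, where 0.672% of all genes were higher and 2.04% lower.

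Genes known to be induced through SMAD2 and SMAD3, a list of 12 that all passed, differed among themselves. In Vehicle over Matrigel-only 3 were higher and 0 lower, with a median log2 ratio of 0.12, where 5.09% of all genes were higher. Tgfbi, a matrix protein, was at 118, 753 and 198 CPM (log2 ratio 2.68), Tagln (transgelin, an actin-binding protein) at 129, 301 and 327 CPM (1.22), and Bhlhe40, a transcription factor, had a log2 ratio of 1.05. The lowest were Adam12 (-0.45) and Junb (-0.35). In Palo over Vehicle 1 was lower, Tgfbi (-1.92), and 0 were higher, with a median of 0.02, where 5.17% of all genes were lower. Tagln was close to its Vehicle level in Palo (0.12). It was the 1 gene of the list higher in Palo than in Matrigel-only (1.34), where 0.672% of all genes were higher.

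In other cells, which held few Inhba UMIs, more of this list was past 2-fold. Of the 8 genes that passed there, 5 were higher in Vehicle than in Matrigel-only and 0 lower (median log2 ratio 1.21, against 0.03 over all genes), where 5.23% of genes were higher. Among them were Pmepa1, an inhibitor of SMAD signalling that SMAD2 and SMAD3 induce (2.70), the inhibitory Smad7 (1.80), Tgfbi (1.35) and the SMAD corepressor Skil (1.08). In Palo over Vehicle 4 were lower, among them Pmepa1 (-2.42), Col5a1 (-1.58) and Smad7 (-1.31), and 0 were higher (median -1.13, against -0.21), where 6.49% of genes were lower. In macrophage-like cells alone, Pmepa1 was at 23.7, 162 and 31.1 CPM, with Vehicle high. Tgfbi was at 424, 1178 and 626 CPM there, Smad7 at 7.70, 34.2 and 14.4 CPM and Skil at 46.1, 106 and 51.0 CPM. Per 1000 UMIs of the stromal gate genes, Pmepa1 stood at 47.7, 288 and 88.9 in macrophage-like cells against 7.54, 10.9 and 4.35 in stromal cells. Tgfbi stood at 855, 2102 and 1792 against 1.57, 14.1 and 2.33. Both were thus above the stromal ratio in each library, not in Vehicle alone. Col5a1 was close to that ratio, at 56.3 against 50.1 in Vehicle. The part of free stromal RNA in these counts was not tested. Of the other pathway genes, 14 passed in other cells, and the 4 higher in Vehicle than in Matrigel-only were Pmepa1, Smad7 and Skil again and Tgfbr1 (1.07). Vehicle implants also held added rhBMP2, and which ligand acted on these genes was not tested.

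Within the Vehicle library, the 633 stromal cells with 5 or more Inhba UMIs were compared with those with 0, weighted over 4 bins of total UMIs to bring their depths closer (330 cells with 0 took part). The bins held 218, 66, 32 and 14 cells with 0, so the deepest bin is thin. In the shallowest bin the median total still differed, at 13268 UMIs in cells with 5 or more and 9569 in cells with 0. Past 2-fold with at least 50 CPM in either group were 89 genes higher (2.57% of 3467) and 208 lower (6.00%). Of the cells with 5 or more, 0 were progenitor-marker cells, 359 remaining stromal cells, 131 Acan cells and 143 Col2a1 cells. Of all 350 cells with 0, before the weighting left out the shallowest, 114 were progenitor-marker cells, 175 remaining stromal cells, 48 Acan cells and 13 Col2a1 cells. The cells are those of 1 library, so the values describe that library.

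The genes higher in the cells with Inhba were led by Klk4, a secreted protease (66.5 against 2.91 CPM, log2 ratio 3.18 with 5 CPM added), Enpp1, which makes pyrophosphate and so restrains mineral (115 against 11.6 CPM, 2.86), and Car9, a carbonic anhydrase induced by hypoxia (93.3 against 11.6 CPM, 2.56). Hbb-bs, a globin with a near-identical copy, followed at 2.40. Without the depth weights Klk4 was at 2.25 and Hbb-bs at 1.35, and Enpp1 was at 2.61. Ptgs2, the inducible cyclooxygenase, was at 286 against 51.6 CPM (2.36), and Tgfb2, another ligand of the superfamily, at 211 against 40.7 CPM (2.24). Contractile genes were in this group, with Tpm2 at 660 against 129 CPM (2.32) and Acta2, the smooth muscle actin, at 1000 against 225 CPM (2.13). Col2a1 was at 1950 against 433 CPM (2.16) and Nrn1 (neuritin) at 337 against 71.8 CPM (2.15). Also among the first 15 were Cdc42ep3 (2.10), Edil3 (2.04), Pappa (1.98) and Pdgfa (1.89).

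The genes lower in the cells with Inhba were led by Eln, elastin (7.54 against 1278 CPM, -6.68), Nov, a matricellular protein (2.26 against 396 CPM, -5.79), and the chemokine Ccl11 (1.58 against 323 CPM, -5.64). The progenitor markers Clec3b (2.87 against 273 CPM, -5.14) and Pi16 (4.60 against 320 CPM, -5.08) were among them, as was Cd34 (20.1 against 464 CPM, -4.23). C3, the complement component, was at 32.5 against 752 CPM (-4.33). The others were Tnxb (-5.11), Adamts15 (-4.56), Apod (-4.38), Efemp1 (-4.36), Itih5 (-4.23), Plpp3 (-4.13), Cxcl14 (-4.03) and Rarres2 (-3.95). Without the depth weights the lower genes lay between -7.11 (Eln) and -4.29 (Rarres2), with Ccl11 at -4.86, Itih5 at -4.92, Plpp3 at -4.76 and Cxcl14 at -4.79. With the progenitor-marker cells left out of both groups (633 against 217 cells) the 15 highest and 15 lowest genes all kept their direction. Pi16 moved from -5.08 to -1.53 and Clec3b from -5.14 to -2.13, while Eln was at -6.35. Among cells without an Acan or Col2a1 UMI (202 against 188), 13 of the 15 higher genes and 15 of the 15 lower genes kept their direction. The exceptions were Hbb-bs (0.00) and Col2a1, which is at 0 in such cells by their choice. These subsets reuse cells of the split that chose the genes, so a kept direction is no separate check.

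The same split in the other libraries gave 51 against 853 cells in Palo and 20 against 1859 in Matrigel-only, before weighting. Of the 15 higher genes 11 were also higher in Palo and 13 in Matrigel-only, and of the 15 lower genes 14 and 15 were also lower, where 54.6% (Palo) and 51.0% (Matrigel-only) of all genes were higher. The 4 higher genes that were not higher in Palo were Klk4, Car9, Col2a1 and Nrn1. Their Palo levels were low, at 0 against 0.25 CPM for Klk4 and 0 against 0 CPM for Col2a1. Car9 was at 0 against 5.59 CPM and Nrn1 at 1.07 against 7.58 CPM. In Matrigel-only, Klk4 and Col2a1 were at 0 CPM in both groups of cells. No direction could thus be read for Klk4 and Col2a1 in either library. Hbb-bs, counted as higher in both, was also low, at 3.20 against 1.85 CPM in Palo and 2.60 against 0.57 CPM in Matrigel-only. Its direction there rests on few UMIs. Cxcl14 was the exception among lower genes, at 0.87 in Palo. Progenitor-marker cells, at 61.3% of Matrigel-only and 34.8% of Palo stromal cells, held little Inhba (5.38 and 7.66 CPM). They were left out in Vehicle only, and the part of makeup in these directions was not tested.

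The other members were read in the same split. Fst was at 43.2 CPM in Vehicle cells with 5 or more Inhba UMIs and 144 CPM in those with 0 (-1.63). In Palo it was the reverse, at 203 against 104 CPM (0.94), from 191 UMIs in 51 cells, of which 32 held a UMI. Fstl3 was higher with Inhba in both libraries, at 73.0 against 33.3 CPM in Vehicle (1.03) and at 0.50 in Palo. Tgfbr3 was lower with Inhba in each library, at 14.0 against 79.6 CPM in Vehicle (-2.16), -0.81 in Palo and -1.08 in Matrigel-only. Leaving out progenitor-marker cells, the Vehicle values were -1.66 for Fst, -1.53 for Tgfbr3 and 0.71 for Fstl3. Acvr1 was at 88.3 against 75.7 CPM (0.21), and the other receptors and Inhbb lay between -0.70 (Acvr2a) and 0.49 (Acvr2b).

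Of all genes in this split 2.57% were higher and 6.00% lower. By list, 6 of the 11 cartilage genes that passed were higher in cells with Inhba and 0 lower (median 1.28, against -0.04 over all genes), and 10 of 11 progenitor genes were lower (median -2.09). Without progenitor-marker cells, only Col2a1 (1.63), Col9a3 (1.09) and Col11a2 (1.02) of the cartilage genes stayed past 2-fold. The progenitor genes then lay between -2.26 (Cd34) and -0.23 (Anxa3). Among cells without an Acan or Col2a1 UMI, no cartilage gene was past 2-fold higher, and Comp (-1.47) and Col9a1 (-1.18) were lower. That choice takes out all Acan and Col2a1 cells, so the loss of higher cartilage genes can follow from it and is no separate result. Of the 5 contractile genes that passed, 4 were higher and 0 lower (Tpm2, Acta2, Myl9 and Tagln, median 1.78). Of the 11 genes induced through SMAD2 and SMAD3 that passed, 3 were higher (among them Tagln 1.71 and Tgfbi 1.16) and 1 lower (Ltbp2), with a median of 0.53. Of the 10 other pathway genes that passed, Bambi was higher (1.32), and Tgfbr2 (-2.98), Pcsk5 (-1.62) and Fstl1 (-1.01) were lower. Of 8 proliferation genes 0 were higher and 2 lower, Top2a (-1.10) and Birc5 (at the limit), which without the depth weights were at -0.26 and -0.38. Of the 3 stress genes 1 was higher, the heat shock gene Hspb1 (1.49), and of the 2 immune genes 0 were past 2-fold.

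**Figure D5:**
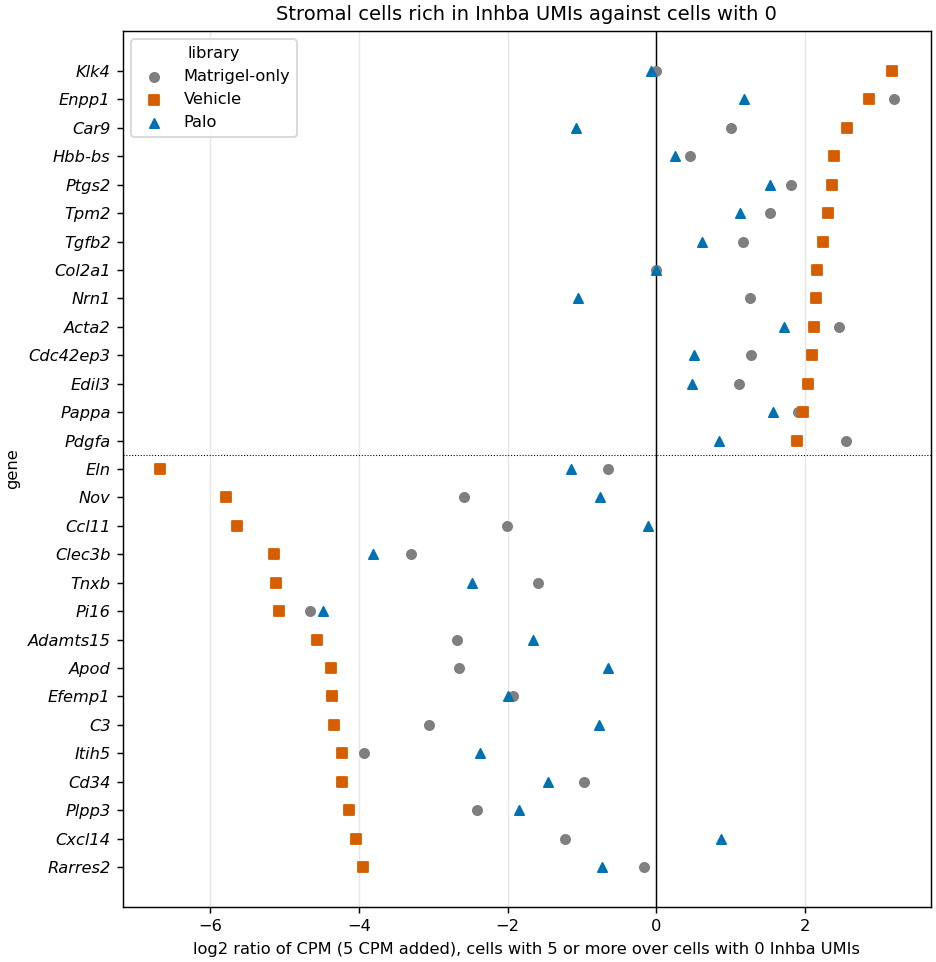
Log2 ratio of CPM (5 CPM added) in Vehicle stromal cells with 5 or more Inhba UMIs over those with 0, weighted by depth bins, for 14 of the 15 highest and for the 15 lowest genes, with the same ratio in Palo and Matrigel-only. Klk4 is at 3.18 and Eln at -6.68 in Vehicle, and 14 of the 15 lowest genes share their direction in Palo.

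The genes whose levels followed each member most closely were found over 20 profiles (the classes of at least 50 cells in the 3 libraries) among 10645 genes, as a description, since profiles of 1 library share its depth. For Inhba they were Tnn (Pearson r = 0.97), Col11a1 (0.95), Fmod (0.95), Nkd2 (0.94) and Tnc (0.93). Inhbb followed Adgrf5 (0.96), Slco2a1 (0.94) and Col4a1 (0.93). The profiles include the endothelial-like cells of Vehicle, whose Inhbb UMIs sat in few cells, and the part of that profile in these values was not tested. Fst followed Mxra7, Fstl1 and Bicc1 (0.99 each), and Fstl3 followed Fosl1 (0.97), Arhgdig (0.95) and Ank3 (0.95). Among receptors, Acvr1 followed Mbnl2 (0.96), Acvrl1 followed Myof (0.91) and Tgfbr3 followed Heg1 (0.94), while the nearest genes of Acvr2a and Acvr1b reached only 0.84 (Chic2) and 0.82 (Atad2b).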

How the data were processed

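The Matrigel-only, Vehicle and Palo libraries were droplet single-cell RNA-seq of dispase-dissociated masses. Per the labels, the authors aligned reads with Cell Ranger 3.0.2 to mm10; Seurat 3 is also named, and the deposited matrices hold UMI counts per gene and barcode, not normalized, with barcodes beyond the study's limits still in them (9249, 6065 and 7905 barcodes). UMI counts were summed per library and cell class and divided by the class total (CPM). Barcodes with over 6000 or under 200 genes or over 5% mitochondrial UMIs were left out. No doublet caller was run; 86, 16 and 54 stromal cells with at least 1% of UMIs from macrophage genes were kept, and left out as an alternative. Between 18 and 151 cells per library lay within 0.5 to 2% of the stromal limit.

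Intervals are exact Poisson (levels), Clopper-Pearson (shares) and conditional binomial (ratios), at 95%, and cover counting error only. Thinning was hypergeometric, to 3000 UMIs in stromal cells and to both 1000 and 3000 in other cells. With 1 library per group no test between groups was possible. A call is a CPM ratio past 2-fold with at least 10 CPM in either library, or, for the Inhba split, past 2-fold with at least 50 CPM and 5 CPM added. Other cells were given the class with the highest mean scaled marker score, with at least 2 markers detected. The named genes are the 15 highest and 15 lowest of the Inhba split, the 2 highest and 2 lowest of each list, and the most alike genes by Pearson r of log2(CPM + 5) among genes reaching 20 CPM. Some of these genes are not reported here. Genes named to resolve a count of 5 or fewer, the 4 classes of stromal cells and the classes of other cells were chosen after values were seen, and members and lists were chosen with earlier results of these data known. Coordinates are from GENCODE vM21 and promoters from RefSeq.

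The depth weighting and fold steps were tested on simulated data. Python 3.11.15, numpy 2.4.6, scipy 1.17.1, pandas 2.3.3, matplotlib 3.10.9, R 4.3.3 and edgeR 4.0.16 (TMM factors only) were used. Alternatives (gate, limits, scaling, minimum, thinning, mixed cells, mean of cells) are in the closing section.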

Additional observations from a re-analysis of the deposited data

Results flagged for a closer look

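Listed are values where stromal and other cells of the same libraries moved in opposite directions, with both intervals excluding 0. They cover Vehicle over Matrigel-only and Palo over Vehicle. Opposite signs with an interval spanning 0 are left out, such as Tgfbr3 in Vehicle over Matrigel-only (-2.55 and 0.39). In Palo over Matrigel-only, Acvrl1 was at -0.40 in stromal and 0.15 in other cells, with both intervals excluding 0. Cells outside the limits that carried a signal follow. The differences between the cell classes were not tested, and each rests on 1 library per group. In Vehicle over Matrigel-only, the log2 ratio of Inhbb was -2.40 in stromal and 3.15 in other cells, where 16 of the 33 Vehicle UMIs sat in 3 endothelial-like cells. For Acvr2a it was -0.31 and 0.47, and for Acvrl1 -1.04 and 0.31. In Palo over Vehicle, Inhbb was at 2.74 in stromal and -3.04 in other cells, Fst at 0.70 and -1.94, and Tgfbr3 at 1.80 and -1.56. The levels of Fst and Tgfbr3 in other cells were at or under 5.30 CPM in every library. For Acvr2a the Palo over Vehicle values were 0.52 and -0.69, and for Acvrl1 0.64 and -0.16, though with TMM factors or median-ratio size factors the latter was 0.087 or 0.065, the same direction as in stromal cells.

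Stromal barcodes with over 6000 genes, which the limits left out, held Inhba at 778 CPM (752 to 805) in the 99 such barcodes of Vehicle, against 60.3 CPM in 15 of Matrigel-only and 72.1 CPM in 21 of Palo.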

How the results depend on the processing

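No paired analysis was possible because each group had 1 library, and for the same reason no library could be left out. Of the values and counts that answer a comparison, recomputed under the alternatives, 87 kept direction and size and 15 moved, and of the other values 415 kept them, 23 moved and 2 reversed; the cause was not tested unless the alternative itself shows it. The stromal Inhba log2 ratio of Vehicle over Matrigel-only lay between 4.80 and 5.10 and that of Palo over Vehicle between -3.40 and -3.35. As a mean over cells rather than a sum, the former was 5.10 and that of Palo over Matrigel-only 1.76. In other cells, with the stromal gate at 2% of UMIs, Inhba log2 ratios were 6.16 and -5.57. Acvrl1 in other cells reversed in Palo over Vehicle, from -0.16 to 0.087 with TMM factors and 0.065 with median-ratio size factors, which move the median of all genes there from -0.21 to 0.05 and 0.03. The share of stromal cells with Inhba was 10.8%, 74.5% and 28.0% without thinning, 1.54%, 29.8% and 4.68% at 1000 UMIs, and 0.770%, 31.9% and 3.23% for at least 2 UMIs, which sets a higher bar. The members past 2-fold numbered 4 to 6 (6 as reported) in Vehicle over Matrigel-only, 4 to 6 (5) in Palo over Vehicle and 1 in each alternative of Palo over Matrigel-only. The genes past 2-fold in the Inhba split numbered 297, against 626 at a minimum of 10 CPM (207 higher, 419 lower) and 195 without progenitor-marker cells (63 higher, 132 lower; 55 and 113 shared with those reported), an alternative chosen after seeing the data. Depth limits Acvr2b, Inhbb and the small classes, whose intervals are wide.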
